A study of Xenopus laevis with 6 samples.

Results

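LIM homeobox genes encode transcription factors in which a pair of LIM zinc-binding domains precedes a DNA-binding homeodomain. The LIM domains bind the bridging cofactor Ldb1, which joins LIM homeodomain proteins into complexes, and LIM-only proteins compete for that cofactor. In the vertebrate forebrain and pituitary these genes mark regions and cell lineages, and in the mouse *Lhx8* (also called *Lhx7*) is needed for the cholinergic neurons of the basal forebrain. The family members described here are *lhx1*, *lhx2*, *lhx3*, *lhx4*, *lhx5*, *lhx8* and *lhx9*, 7 genes in all. They were found through the array annotation, by taking every probe set with 1 gene symbol that equals a member's name once the suffix .L or .S is removed. These suffixes mark the gene copies on the long and short chromosomes of the allotetraploid frog *Xenopus laevis*. Of 32539 tested probe sets and 9273 genes, 12 probe sets belonged to 6 of the 7 genes, and *lhx4* had no single-symbol probe set. *lhx1*, *lhx8* and *lhx9* had 3 probe sets each, and *lhx2*, *lhx3* and *lhx5* had 1 each.

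The frogs were juveniles with an average body weight of 0.8 g. The 3 saline frogs, numbered 1 to 3, received 0.6% saline into the brain ventricles, and the 3 leptin frogs, numbered 4 to 6, received 20 ng of recombinant frog leptin (rxLeptin, *X. laevis* sequence) for each g of body weight by the same route. Tissue was taken 2 h later as a block of preoptic area, hypothalamus and pituitary, and each frog has 1 array. No strain, sex or genotype is stated in the labels.

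The set was selected on the log2 difference of *lhx8* between leptin and saline frogs, so the leptin contrast is given here for all members as a description, with no test. Across the whole table limma called 0 of 32539 probe sets at an adjusted p of 0.05 (0%), and 1533 had an unadjusted p under 0.05 (4.71%). All signals are on the log2 scale, differences are leptin minus saline with limma's moderated standard error (SE), and levels of different probe sets are not compared with each other. No measure of background was used.

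The blocks differed in region markers, and this touches several members. Region lists were averaged per frog, each gene by its brightest probe set and members left out. The list of 17 pituitary genes averaged 7.03 in saline frog 1 against 9.27 to 9.95 in the other 5 frogs. In saline frog 3 the 12 skeletal muscle markers averaged 8.14, against 6.27 to 6.65 elsewhere, and the 11 pallial genes averaged 8.80, against 9.52 to 9.78 elsewhere. The 15 genes of thalamus, habenula and pretectum averaged 8.72 in leptin frog 6, 8.70 in saline frog 3 and 8.25 in leptin frog 5, and 7.78 to 8.01 in the other 3 frogs. The 18 hypothalamic and preoptic genes lay between 7.28 in saline frog 1 and 7.80 in saline frog 3, with every leptin frog between these. In a tissue block, fewer cells of a type and less RNA per cell cannot be told apart. In the 8 gene lists used here limma passed 0 members over all probe sets, and at an unadjusted p under 0.05 there was 1 higher pituitary gene, 1 higher hypothalamic gene and 1 lower ventral forebrain gene.

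All 3 *lhx8* probe sets read lower in every leptin frog than in any saline frog. The probe set Xl2.34179.1.S1_at read 10.23, 10.28 and 10.47 in saline frogs 1, 2 and 3, and 9.69, 9.83 and 9.52 in leptin frogs 4, 5 and 6. The lowest saline frog lay 0.40 above the highest leptin frog, while the saline frogs spanned 0.24 and the leptin frogs 0.31. The means were 10.3 ± 0.13 (SD, n = 3) and 9.68 ± 0.16 (SD, n = 3), a 1.57-fold lower signal in leptin frogs (log2 -0.65, SE 0.11).

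The other *lhx8* probe sets gave the same order of groups. Xl2.21556.1.S1_s_at read 7.41, 7.48 and 7.64 in the saline frogs and 6.92, 7.08 and 6.82 in the leptin frogs, with a difference of -0.57 (SE 0.10) and a gap of 0.33 between the groups. Xl2.34357.1.S1_s_at read 7.29, 7.45 and 7.37 in the saline frogs and 6.85, 6.82 and 6.28 in the leptin frogs, with a difference of -0.72 (SE 0.16) and a gap of 0.44. Leptin frog 6 was the lowest of the 6 frogs on each of these probe sets.

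The *lhx8* probe sets are not independent readings. All 3 are annotated to *lhx8.L*, and their values over the 6 frogs correlated at 0.998, 0.940 and 0.926 (Pearson, a description over 6 frogs that share the group difference). The ending _s_at marks a set whose probes match more than 1 transcript, which holds for 2 of the 3. RefSeq also lists an *lhx8.S* gene, but no single-symbol probe set carries that name. Whether the probes tell the 2 copies apart could not be checked.

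**Figure D1:**
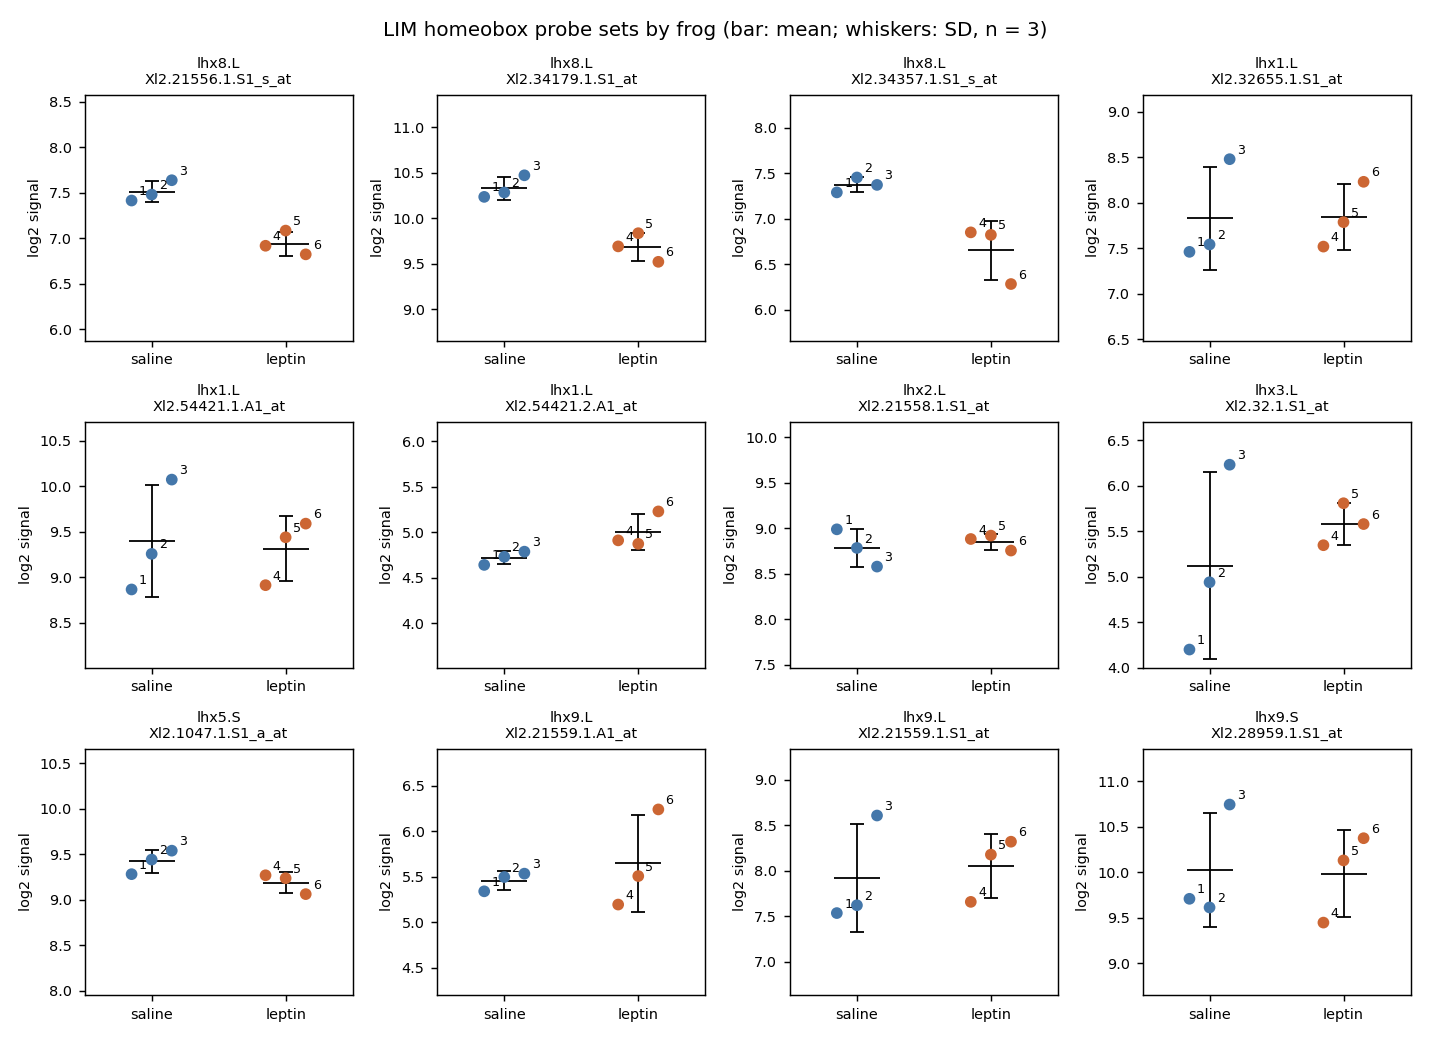
Log2 signal of the 12 LIM homeobox probe sets in each frog (numbered points), with the group mean and SD (n = 3) as bar and whiskers; every panel spans the same log2 range. In the 3 lhx8.L panels all leptin frogs lie below all saline frogs, with gaps of 0.33 to 0.44. lhx1, lhx3 and lhx9 vary mostly between frogs of 1 group, except on 1 dim lhx1.L probe set with all leptin frogs above all saline frogs.

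*lhx8* was not the only member whose groups were apart, although its differences were the largest of the 12 probe sets. In leptin frogs 6 of the 12 read lower on average, where 47.6% of all probe sets did. The groups did not overlap, with leptin lower, for 4 of the 12, namely the 3 of *lhx8* and the 1 of *lhx5*, against 6.78% of all probe sets. They did not overlap, with leptin higher, for 1 of the 12, against 5.15% of all. Since the choice of members used this contrast, nothing is read from these shares. Probe sets wholly lower in leptin frogs by at least the smallest *lhx8* difference numbered 100 in the whole table (0.307%). That cutoff was taken from *lhx8* itself, so nothing is read from this share either.

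*lhx5*, which in mouse is expressed in the developing hypothalamus and mammillary region, had the next lower value. The *lhx5.S* probe set Xl2.1047.1.S1_a_at read 9.28, 9.44 and 9.54 in saline frogs 1 to 3 and 9.27, 9.24 and 9.06 in leptin frogs 4 to 6. The groups were apart by only 0.01, between saline frog 1 and leptin frog 4. The difference was -0.23 (SE 0.10), a 1.17-fold lower signal, from 9.42 ± 0.13 to 9.19 ± 0.11 (SD, n = 3 each). Over the 6 frogs its values correlated with the *lhx8* probe sets at 0.889 to 0.899 (Pearson, description only). Frog 3 was the highest of the saline frogs in *lhx5* and on 2 of the 3 *lhx8* probe sets, and frog 6 the lowest of the leptin frogs on all 4. The array of leptin frog 6 also had the lowest median of all probe sets, 7.36 against 7.42 to 7.46 in the other frogs. With arrays centred on their medians the *lhx5.S* difference was -0.22 (SE 0.10), still without overlap.

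**Figure D2:**
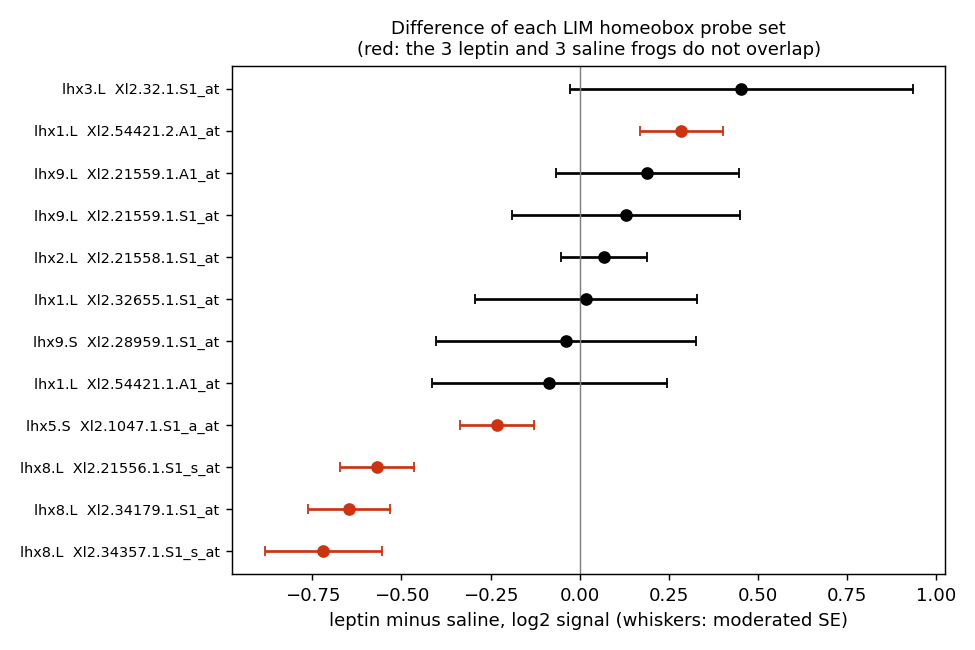
Difference between leptin and saline frogs for each LIM homeobox probe set (points, log2) with limma's moderated SE (whiskers); red marks the 5 probe sets whose groups do not overlap. The lhx8.L probe sets lie at -0.57 to -0.72, lhx5.S at -0.23, and the other 8 between -0.08 and 0.45.

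The other 8 probe sets, of *lhx1*, *lhx2*, *lhx3* and *lhx9*, had differences between -0.08 and 0.45. For 7 of them the groups overlapped. The exception was 1 of the 3 *lhx1.L* probe sets, Xl2.54421.2.A1_at, at 4.64, 4.73 and 4.79 in saline frogs and 4.91, 4.87 and 5.23 in leptin frogs (difference 0.28, SE 0.12). Its mean signal was dim, at percentile 16.3 of all probe sets. The 2 other *lhx1.L* probe sets, at percentiles 55.5 and 76.0, had differences of 0.02 (SE 0.31) and -0.08 (SE 0.33), so the higher reading was not shared within the gene.

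*lhx1*, known in mouse for its role in the suprachiasmatic nucleus, and *lhx9*, known in frog and mouse as a marker of thalamus and pretectum, followed the same frogs rather than the groups. *lhx9.S* (Xl2.28959.1.S1_at) read 9.71, 9.61 and 10.7 in saline frogs 1 to 3 and 9.44, 10.1 and 10.4 in leptin frogs 4 to 6. The *lhx9.L* probe set Xl2.21559.1.S1_at read 7.53, 7.62 and 8.61 in saline frogs and 7.66, 8.18 and 8.32 in leptin frogs. On both, saline frog 3 was highest, then leptin frogs 6 and 5.

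The brighter *lhx1.L* probe sets had that order of frogs as well. Xl2.54421.1.A1_at read 8.87, 9.26 and 10.1 in saline frogs and 8.91, 9.44 and 9.59 in leptin frogs, and Xl2.32655.1.S1_at read 7.46, 7.54 and 8.48 against 7.52, 7.79 and 8.23. Between these 2 and the 2 *lhx9* probe sets above, correlations over the 6 frogs were 0.936 to 0.962. The same 3 frogs had the highest means of the thalamus, habenula and pretectum list, and the part of block composition in these values was not tested. Of the 15 genes in that list, 8 had these 3 frogs on top, 1 had them lowest and 6 had another order. The 3 frogs were taken from the order of the members, and the share of all genes with that order was not counted. Among the 8, chosen after their values were seen, were the Iroquois gene *irx2.L* (9.90 in saline frog 3, 9.79 in leptin frog 6, 9.43 in leptin frog 5, at most 9.03 elsewhere) and the Wnt effector *tcf7l2.L* (12.5, 12.2 and 12.3, at most 11.6 elsewhere). The gene with the reverse order was *pax6.L*, a factor of eye and forebrain, at 11.2, 11.1 and 11.2 in those frogs and 11.3 to 11.4 elsewhere.

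The third *lhx9* probe set also had leptin frog 6, saline frog 3 and leptin frog 5 highest, but only leptin frog 6 stood apart. Saline frog 3 and leptin frog 5 read 5.53 and 5.51, against 5.50 in saline frog 2. The *lhx9.L* probe set Xl2.21559.1.A1_at lay between 5.19 and 5.53 in 5 frogs and at 6.24 in leptin frog 6, at percentile 25.5 of mean signal. Its difference of 0.19 (SE 0.26) was -0.11 without leptin frog 6. For the *lhx9.S* and *lhx9.L* probe sets described before it, the differences were -0.04 (SE 0.36) and 0.13 (SE 0.32).

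*lhx3*, which in mouse is needed to form the anterior and intermediate pituitary, had the widest spread between frogs. The *lhx3.L* probe set Xl2.32.1.S1_at read 4.20, 4.94 and 6.23 in saline frogs 1 to 3 and 5.34, 5.81 and 5.58 in leptin frogs 4 to 6, at percentile 22.7 of mean signal. The saline frogs lay on both sides of the leptin frogs, with saline frog 1 lowest and saline frog 3 highest. Saline frog 3 and leptin frogs 5 and 6 were the highest frogs here, as on the brighter *lhx1* and *lhx9* probe sets. With those probe sets *lhx3.L* correlated at 0.729 to 0.878 over the 6 frogs (Pearson, description only), so much of the frog pattern was shared. The difference was 0.45 (SE 0.48), with a value of -0.01 when saline frog 1 was left out and of 1.01 when saline frog 3 was.

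Saline frog 1, lowest in *lhx3.L*, was also lowest in 11 of the 17 pituitary list genes. The hormone genes *pomc.L*, *gh1.L* and *cga.S* were among these. By rank this was not particular to pituitary genes, but the depth differed. Saline frog 1 was lowest in 10 of 15 thalamus, habenula and pretectum genes and in 9 of 18 hypothalamic and preoptic genes. *gata3.S* counts in both the pituitary and thalamic lists, and *barhl2.S* in both the thalamic and hypothalamic lists. The pituitary list mean was 7.03 in that frog and 9.27 in the next lowest. The thalamic means were 7.78 and 8.01, and the hypothalamic and preoptic means 7.28 and 7.48. In the ventral forebrain list saline frog 1 was lowest in 4 of 17 genes, and in the pallial and muscle lists in 0 of 11 and 0 of 12. The share of all genes lowest in that frog was not counted. The glycoprotein hormone alpha subunit *cga.S* read 4.16 in that frog and 11.2 to 12.2 in the other frogs. With the mean of *pomc*, *gh1* and *cga* as a covariate the *lhx3.L* difference was -0.01 (SE 0.34). In that mean, centred over the frogs, saline frog 1 lay at -5.61 and the others at 0.76 to 1.66. The covariate thus nearly repeats leaving out saline frog 1 and does not measure a pituitary part in *lhx3.L*. The remaining frogs spanned 4.94 to 6.23 in *lhx3.L*, with saline frog 3 highest in both *lhx3.L* and the pituitary list mean. The early pituitary factor *hesx1.L* lay between 5.32 and 6.34 in all frogs (difference 0.35, SE 0.23), and the gonadotropin subunit *fshb.L* had the largest difference relative to its error in the pituitary list (2.72, SE 0.91, limma adjusted p = 0.906).

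The genes most like *lhx3.L* over the 6 frogs, by Pearson correlation among single-symbol probe sets at least 0.5 times as variable, were *reep6.L* (0.993), the cone transducin subunit *gnat2.S* (0.986), the isoprenoid synthesis enzyme *fdps.L* (0.986), the neuropeptide gene *vip.L* (0.978), *mecom.L* (0.970) and *chmp4c.L* (0.969). In each of the 6, saline frog 1 was lowest, as in the *lhx3.L* probe set they were matched to, so this largely follows from the choice. *gnat2.S* read 5.22 in that frog, 7.17 in saline frog 3 and 6.05 to 7.04 in the others. The hormones *gh1*, *cga* and *pomc* were not among the 6, from which nothing is read.

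*lhx2*, a factor of cerebral cortex and eye in mouse, spanned 0.41 over the 6 frogs, the smallest span of the 12 probe sets. The *lhx2.L* probe set Xl2.21558.1.S1_at read 8.99, 8.78 and 8.58 in saline frogs and 8.88, 8.92 and 8.75 in leptin frogs, a difference of 0.07 (SE 0.12). Saline frog 3 was the lowest of the 6, as it was in the pallial list mean. The pallial T-box gene *eomes.L* read 8.26 in that frog and 9.74 to 10.3 in the others.

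**Figure D3:**
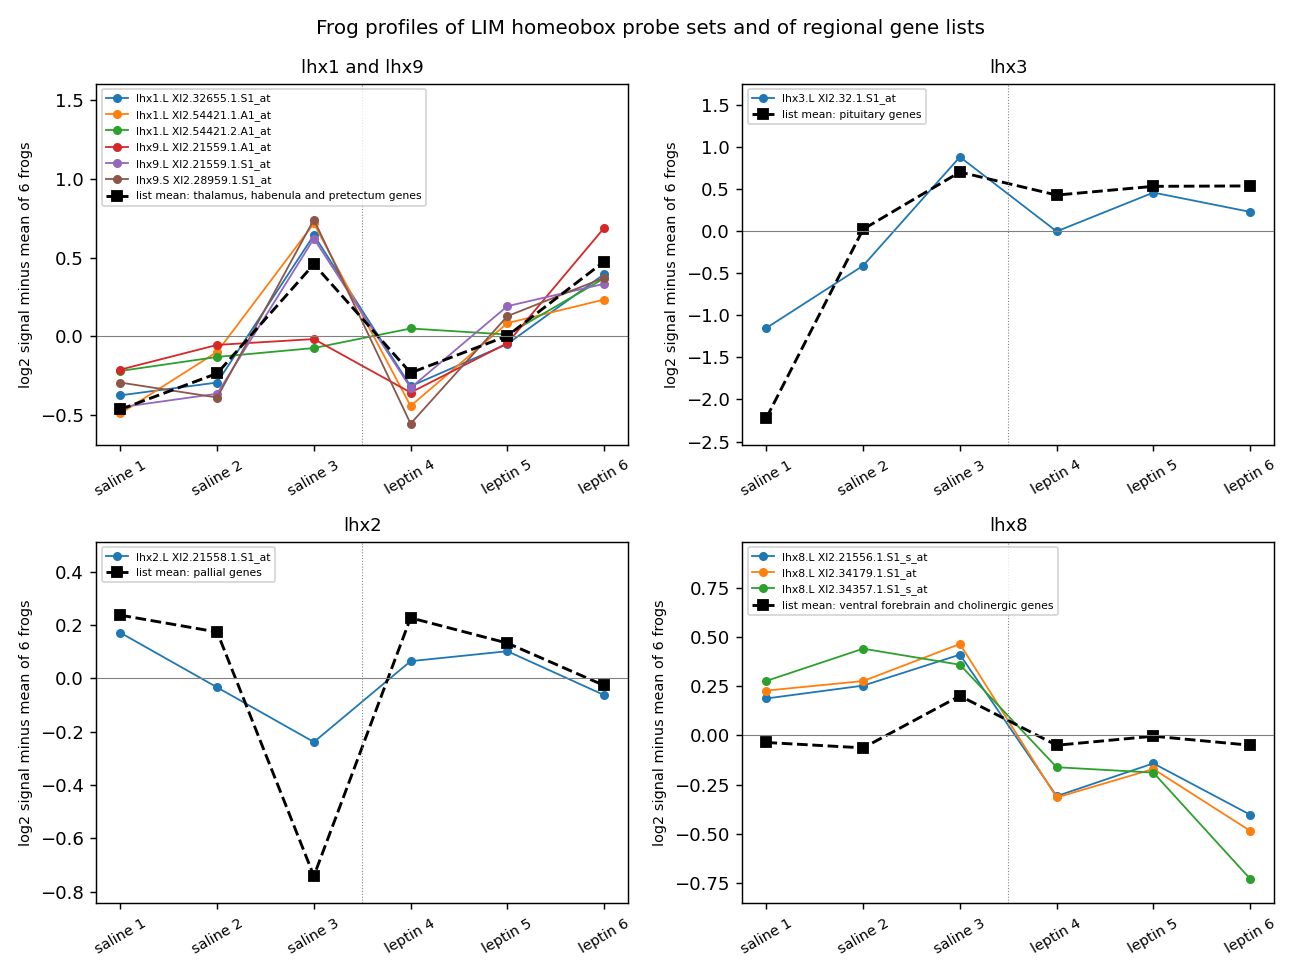
Log2 signal per frog minus the mean of 6 frogs for LIM homeobox probe sets (coloured lines) and for the mean of a regional gene list without them (dashed black); the dotted line parts saline from leptin frogs. lhx1 and lhx9 are highest in saline frog 3, then leptin frogs 6 and 5, except on 1 dim probe set of each, lhx3 is lowest in saline frog 1, and lhx8 is lower in all leptin frogs while the list means of the groups overlap.

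The saline frogs spanned 0.16 to 0.24 on the *lhx8* probe sets, and the leptin frogs 0.26 to 0.57. In list means the saline frogs spanned 2.92 in pituitary, 1.82 in muscle, 0.98 in pallial and 0.92 in thalamic genes. They spanned 0.53 in hypothalamic and preoptic, 0.26 in ventral forebrain and 0.15 in LIM cofactor and LIM-only genes. Since *lhx8* was chosen for its difference between the groups, nothing is read from its span beside those of the lists. The ventral forebrain list, the one closest to the setting of *lhx8*, spanned little as a mean, but a mean of 17 genes is not like a single probe set. Its genes could move in opposite directions, as in 2 chosen after their values were seen. *gbx2.2.L* read 7.13, 6.63 and 7.97 in saline frogs 1 to 3, and *sp8.L* read 11.5, 11.4 and 10.6. With pituitary, muscle, pallial and thalamic genes as a covariate in turn, using 3 hormone genes for pituitary and 4 genes for muscle, the difference of Xl2.34179.1.S1_at was -0.70, -0.55, -0.61 and -0.66, respectively. The pituitary covariate mainly set saline frog 1 apart and the muscle covariate saline frog 3. Leaving out these frogs gave similar values, -0.70 and -0.58. The thalamic and pallial covariates were chosen after the values were seen. The number of *lhx8*-expressing cells in each block was not measured, and its part in the difference was not tested.

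Genes of the ventral forebrain, where *lhx8* is expressed in mouse and frog, had smaller differences than *lhx8*. Since *lhx8* was chosen for its difference, nothing is read from that contrast. Of 17 measured genes of ventral forebrain and cholinergic neurons, 0 passed in either direction and 12 were lower, with a median difference of -0.09. The 5 higher genes included *nkx6-2.L* (0.47, SE 0.33, overlapping groups), named after its values were seen. It had the largest difference of the 17 in either direction. Of all 9273 genes, 5111 were lower, with a median of -0.02. The list mean was 8.83 to 9.09 in saline frogs and 8.84 to 8.89 in leptin frogs. The groups did not overlap, with leptin lower, for 3 of the 17, where 9.85% of all genes did so. These were the somatostatin gene *sst.1.L* (13.1, 13.1 and 13.4 in saline frogs and 12.9 in each leptin frog, difference -0.27, SE 0.10), *nkx2-2.S* (-0.38, SE 0.20) and *zic1.S* (-0.19, SE 0.10). All 3 had a limma adjusted p of 0.906. *nkx2-2.S*, which is also in the thalamic list, read 8.56, 8.51 and 9.24 in saline frogs and 8.30, 8.50 and 8.38 in leptin frogs. Its groups were thus barely apart, and its difference was -0.14 without saline frog 3.

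*nkx2-1.L*, which in mouse acts upstream of *Lhx8* in the ventral forebrain and was chosen here after its values were seen, read 9.77, 10.02 and 10.2 in saline frogs and 9.85, 9.80 and 9.79 in leptin frogs. Its groups overlapped because saline frog 1 read below every leptin frog, with a difference of -0.19 (SE 0.13). That difference was -0.31 (SE 0.10) without saline frog 1 and -0.08 (SE 0.10) without saline frog 3. The GABA synthesis gene *gad1.1.L*, chosen in the same way, had a difference of -0.001 (SE 0.14). *lhx6*, the partner of *lhx8* in the same region in mouse, had no single-symbol probe set under that symbol, nor did the cholinergic genes *chat* and *slc18a3*. From the same list *ache.L* and *ngfr.L*, also named after their values were seen, had overlapping groups. Their differences were 0.11 (SE 0.14) and -0.01 (SE 0.09).

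The remaining LIM homeobox genes with a probe set were *isl1* and *lmx1b*. *isl1.S*, a factor of pituitary and ventral forebrain neurons, had differences of -0.16 (SE 0.14) and -0.27 (SE 0.19) on its 2 probe sets. *lmx1b.1.S*, a factor of dopamine and serotonin neurons, had differences of -0.12 (SE 0.22) and 0.09 (SE 0.15). The groups overlapped on all 4, and the smallest limma adjusted p was 0.906.

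The cofactors and LIM-only genes gave 0 limma passes among 15 measured genes, and 0 at an unadjusted p under 0.05. Of the 15, 10 were lower and 5 higher, with a median difference of -0.08. Of all 9273 genes, 5111 were lower, with a median of -0.02. *ldb1*, whose product bridges LIM homeodomain proteins, had differences of 0.07 (SE 0.10, *ldb1.L*) and -0.05 (SE 0.08, *ldb1.S*), and *ldb2.S* of -0.19 (SE 0.16). The LIM-only genes lay between -0.10 (*lmo1.S*, *lmo2.S* and *lmo4.2.S*) and 0.16 (*lmo4.2.L*) on all their probe sets. *lmo3.S* was at 0.01 and 0.02 and *lmo4.1.S* at -0.05 on both. *lmo7*, a LIM domain gene outside the *lmo1* to *lmo4* group despite its name, was at -0.08 and -0.01. *rlim.S*, a ubiquitin ligase that targets Ldb cofactors in other vertebrates, had differences of -0.16 (SE 0.12) and -0.22 (SE 0.11), and the LIM domain gene *fhl1* of -0.26 (SE 0.22, *fhl1.L*) and -0.39 (SE 0.24, *fhl1.S*), with overlapping groups on both.

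Single-stranded DNA binding proteins of the Ssbp2 to Ssbp4 group stabilize Ldb1 complexes. *ssbp2.S* read 12.27, 12.33 and 12.26 in saline frogs and 12.20, 12.19 and 12.22 in leptin frogs, without overlap (-0.08, SE 0.07). *ssbp4.S* (-0.13, SE 0.08) also lay wholly lower. So did *ssbp1.S* (-0.20, SE 0.10), a mitochondrial protein gene outside that group, but narrowly, with the lowest saline frog at 9.215 and the highest leptin frog at 9.211. The other copy, *ssbp1.L*, had overlapping groups and a difference of 0.10 (SE 0.13). *ssbp3.L* overlapped on both probe sets (0.09, SE 0.08 and -0.01, SE 0.07). These 3 of 15 list genes without overlap, *ssbp1.S* among them, stand against 9.85% of all genes, and each had a limma adjusted p of 0.906.

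The genes most like *lhx8.L* over the 6 frogs, taken from its most variable probe set Xl2.34357.1.S1_s_at, were the intracellular cation channel *tmem38b.S* (Pearson 0.993), the dehydrogenase family gene *sdr42e1.L* (0.993), the prefoldin subunit *pfdn5.S* (0.987), *ostf1.L* (0.978), the centrosome and adhesion gene *ssx2ip.S* (0.974) and the mitochondrial elongation factor *tsfm.L* (0.967). All 6 had leptin frogs wholly below saline frogs and leptin frog 6 lowest, as in the probe set they were matched to. *tmem38b.S*, for example, read 6.78, 6.81 and 6.83 in saline frogs and 6.41, 6.46 and 6.02 in leptin frogs. With 6 frogs in 2 groups and a whole array to choose from, such correlations describe the readings only.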

How the data were processed

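The deposited table holds log2 values for probe sets on 6 arrays, from 3 saline and 3 leptin frogs. RMA, affy and limma appear in the submitters' processing notes with neither version nor role. Per the labels' protocols, 250 ng of total RNA per frog was amplified and biotin-labelled. Arrays have no depth, and their number limits the precision. The labels number separate frogs.

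The 96 AFFX probe sets were left out of 32635, leaving 32539, of which 15495 had 1 symbol; 2 symbols were updated through Entrez identifiers. No sequence is shown. The values were fitted without further normalization in limma 3.58.1 under R 4.3.3 (lmFit, eBayes, two-sided, no covariate), with Benjamini-Hochberg adjustment over all tested probe sets. For lists, a gene was its brightest single-symbol probe set, and tandem copies counted as separate genes (9273 genes). The steps were tested on simulated data.

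Members and lists were chosen with earlier results of these data known. Named were all member probe sets, other LIM homeobox genes, *ldb*, *lmo* and *ssbp* genes, hormone and muscle checks, list genes with the smallest p and the 6 genes most like *lhx8* and *lhx3*. Of the list genes, those a result turned on are printed.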

Additional observations from a re-analysis of the deposited data

How the results depend on the processing

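The 3 *lhx8* probe sets read lower in leptin frogs under every alternative run for them (14 or 15 each): leaving out each frog, array centring, quantile and loess scaling, the brighter 50% of probe sets where they were in it, 4 covariates, and the mean of the gene's probe sets (-0.65). The differences ranged from -0.82 to -0.49. Because the full groups lay apart, leaving out a frog could neither change the sign nor bring overlap, for *lhx8* or *lhx5.S*. The brighter 50% and the mean of the probe sets could not change the sign either. Only rescaling and the covariates could have done so, and with rescaled arrays the groups still did not overlap. *lhx5.S* also stayed below 0 in 15 of 15 (-0.30 to -0.16). All alternatives for members moved a value by less than the SD within groups, except 1 dim *lhx1.L* probe set, which was 0.07 as the gene's mean. Leaving out 1 of 3 frogs keeps the shift below that SD by construction, and the brighter 50% returns the same difference. For those alternatives the small shift is thus no sign of stability. Of the others, 7 took both signs, *lhx3.L* from -0.01 to 1.14. With the muscle covariate, which mainly set saline frog 3 apart, the brighter *lhx1* probe sets were at 0.44 and 0.32. The count of probe sets past the adjusted threshold was 0 to 4 when a frog was left out (4 without saline frog 2, 0 without each of the others) and 1 for genes taken as the mean of their probe sets, an alternative chosen after seeing the data. It was 0 under every other alternative. Probe sets without overlap numbered 3883 with 3 frogs against 3 and 6515 to 8195 with a frog left out, where fewer frogs separate by construction. Of the 6 genes most like *lhx8* by Pearson correlation, 3 were among the 6 by Spearman correlation. No listed gene passed the adjusted threshold under the alternatives run. No paired analysis was possible because the saline and leptin frogs share no replicate numbers.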

Other observations

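Some probe sets outside the rule also carry LIM homeobox names. Those annotated *lhx2-b*, a name that RefSeq lists as a synonym of *lhx2.S*, read 5.47, 5.33 and 5.23 in saline frogs and 5.47, 5.49 and 6.15 in leptin frogs on one, and 4.70, 4.66 and 4.41 against 4.91, 4.79 and 4.52 on the other. Both had overlapping groups and lay at percentiles 25.0 and 13.7 of mean signal. The probe set annotated to both *lhx9.S* and *lhx9.L* read 8.68, 8.42 and 9.56 in saline frogs and 8.51, 9.09 and 9.35 in leptin frogs, with saline frog 3 and leptin frogs 6 and 5 highest, as on the single-copy *lhx9* probe sets. Its difference was 0.09 (SE 0.34).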
